A study of Mus musculus with 33 samples.

Results

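The cardiac transcription factor genes Nkx2-5, Tbx5, Tbx20, Hand1, Hand2, Isl1, Mef2c and Myocd were followed through the chromatin lists of WT and Uhrf1 KO mouse cells. They are 8 of the 22367 protein-coding genes that the GENCODE annotation places on the mm9 assembly, and they were chosen by name for their role in the heart. Each gene was read in every list. An H3K4me3 domain had to lie within 2 kb of the gene start, an H3K27me3 or H3K9me3 domain within 5 kb of it, an Oct4, Sox2 or Nanog summit within 20 kb of the gene body, and a Uhrf1 window on the gene body. All 8 genes could be read in all 25 lists.

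ChIP-seq, which sequences the DNA bound to an immunoprecipitated protein, was done on E14 mouse embryonic stem cells (mESC), either WT or Uhrf1 KO, and on embryoid bodies (EB), the spheroids that these cells form as they differentiate, after 1, 2 and 3 weeks. H3K4me3 and H3K27me3 were measured in both genotypes in mESC and in EB at each week, whereas H3K9me3, Oct4, Sox2 and Nanog were measured in both genotypes in mESC only, and Uhrf1 in WT mESC only. Undifferentiated cells were grown with leukemia inhibitory factor on gelatin or feeder cells, and EB were started in hanging drops. Both ES cell lines came from another laboratory, the KO is represented by a single line, and an EB is a mixture of cell types in which a domain can come from a share of the cells. Each genotype, stage and target had 1 library, so there was no spread between replicates, a difference between the genotypes within a stage could not be tested and p-values are absent. The stages differ in their cells and were not used as replicates. Every difference below is a difference between 2 deposited lists. The number of reads behind each list was not used here, so a domain missing from a list is a domain that was not called, and its depth limit is unknown.

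The heart is the first organ to work in the mouse embryo, and its muscle arises from mesodermal progenitors under a network of transcription factors that act on each other and on shared muscle targets. Promoters of such developmental regulators are known in ES cells for carrying H3K4me3, a mark of active or poised promoters, together with H3K27me3, the mark laid down by Polycomb repressive complex 2. This double state is called bivalent, and it is classically resolved toward one mark or the other as cells take up a fate. H3K9me3 marks constitutive heterochromatin. Uhrf1 binds hemimethylated DNA and recruits Dnmt1, which copies DNA methylation after replication. Below, a promoter with both H3K4me3 and H3K27me3 is called bivalent, one with H3K4me3 alone active, one with H3K27me3 alone repressive, and one with neither unmarked; these names describe the lists and not transcription, which was not measured in these files.

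The Uhrf1 gene itself was active by this definition in all 8 combinations of genotype and stage, which does not check the knockout, since no deposited list reads its transcript or the deleted part. In mESC, 7 of 8 pluripotency markers had H3K4me3 in WT and the same number in KO, and Esrrb was without it in both. In EB the number with H3K4me3 was 5, 7 and 7 of 8 in WT at weeks 1, 2 and 3, and 2, 7 and 7 in KO. By the definition above, 4 of the 8 were active and 3 bivalent in WT mESC, against 7 and 0 in KO mESC. The WT mESC H3K27me3 list thus also reached pluripotency markers. In EB 1, 3 and 4 of the 8 were active in WT, and 0, 5 and 5 in KO. The KO mESC H3K27me3 list stood apart in its number of domains. It held 722 domains over 84.1 Mb, against 3722 to 9488 domains in the other 7 H3K27me3 lists. The length covered also varied among those 7. It was 959.7 Mb in WT mESC, and 101.3, 1165 and 791.4 Mb in WT at weeks 1, 2 and 3. In KO it was 180.1, 466.8 and 419.9 Mb at weeks 1, 2 and 3. Domain lengths at single genes therefore rest on lists of unlike extent. The KO Oct4 list was also short, with 576 summits against 12898 in WT. Results that rest on either of these short KO mESC lists are given with that in view, and the EB stages do not use them.

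The sequence at the gene starts differed in CpG content among the 8 genes. CpG dinucleotides are rare in the genome except in CpG islands, which are the usual site of both H3K4me3 and H3K27me3 at promoters. Within 500 bp of the start, the observed to expected CpG ratio was 0.77 at Isl1, 0.74 at Hand2, 0.63 at Tbx20, 0.59 at Nkx2-5, 0.55 at Myocd, 0.34 at Hand1, 0.30 at Mef2c and 0.12 at Tbx5. The median over all coding genes was 0.55 and 5 of the 8 genes lay above it. The 150 bases before the start are shown for 5 of the genes, 5′ to 3′ on the strand of the gene in mm9, with each CG in capitals. They were chosen because Isl1 and Tbx20 carry many CG, Tbx5 and Mef2c almost none, and Nkx2-5 is the gene that had H3K4me3 in WT and not in KO at some stages. Mef2c has a second annotated start 20.9 kb inside the gene, and is shown at both.
Isl1, chr13:117099897-117100046, minus strand: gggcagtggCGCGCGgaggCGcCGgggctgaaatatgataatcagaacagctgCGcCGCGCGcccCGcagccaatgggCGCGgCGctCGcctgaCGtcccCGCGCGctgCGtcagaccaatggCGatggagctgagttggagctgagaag
Tbx20, chr9:24578747-24578896, minus strand: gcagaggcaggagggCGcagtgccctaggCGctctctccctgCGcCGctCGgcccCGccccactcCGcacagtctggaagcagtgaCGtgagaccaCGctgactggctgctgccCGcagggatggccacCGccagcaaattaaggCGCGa
Nkx2-5, chr17:26978511-26978660, minus strand: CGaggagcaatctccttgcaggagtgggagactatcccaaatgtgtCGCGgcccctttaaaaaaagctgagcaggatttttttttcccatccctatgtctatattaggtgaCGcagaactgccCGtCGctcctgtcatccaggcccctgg
Tbx5, chr5:120284522-120284671, plus strand: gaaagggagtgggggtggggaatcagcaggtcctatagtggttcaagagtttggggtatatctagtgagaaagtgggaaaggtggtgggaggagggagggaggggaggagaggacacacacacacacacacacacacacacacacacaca
Mef2c, first start, chr13:83642883-83643032, plus strand: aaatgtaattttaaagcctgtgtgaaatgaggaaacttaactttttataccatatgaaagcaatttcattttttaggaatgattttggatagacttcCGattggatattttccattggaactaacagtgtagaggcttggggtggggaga
Mef2c, second start, chr13:83663826-83663975, plus strand: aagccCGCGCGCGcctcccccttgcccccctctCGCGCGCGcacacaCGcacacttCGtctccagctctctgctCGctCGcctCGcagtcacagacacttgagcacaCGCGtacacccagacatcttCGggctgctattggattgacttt
These stretches held 20 CG at Isl1, 13 at Tbx20, 6 at Nkx2-5, 0 at Tbx5, 1 at the first start of Mef2c and 16 at its second start. Of the genes not shown, Hand2 had 14 CG, Hand1 10 and Myocd 10. Over all coding genes the median was 6, and 12.6% of genes had none. At its second start Mef2c had an observed to expected ratio of 0.80, in the 79.2 percentile of coding genes, against the 32.1 percentile at its first start.

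**Figure D1:**
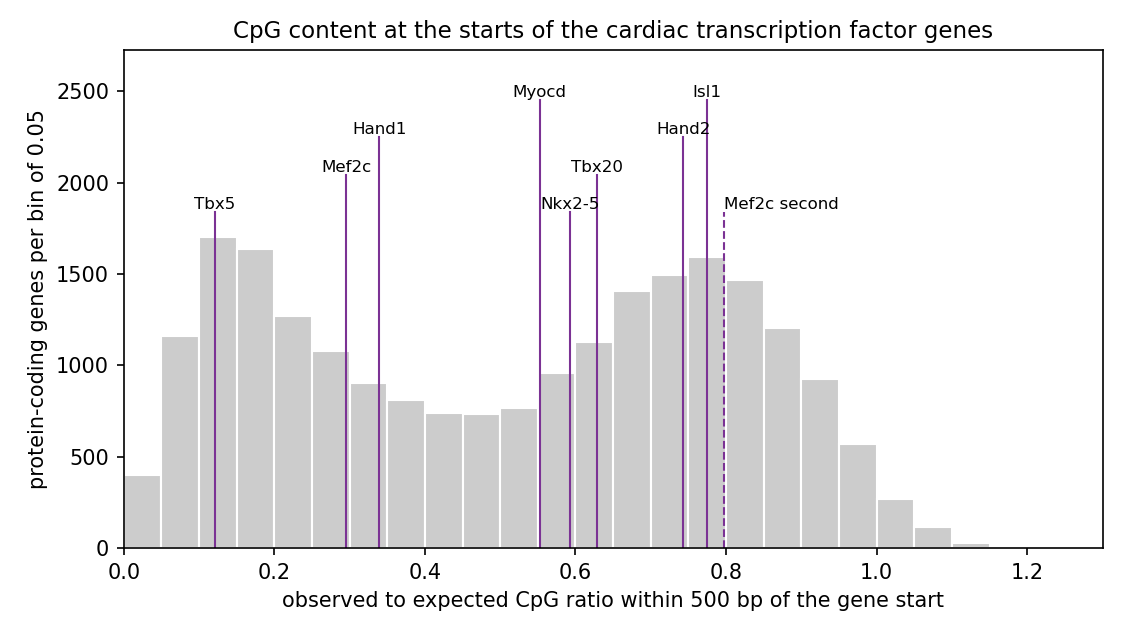
Grey bars count protein-coding genes by the observed to expected CpG ratio within 500 bp of the gene start, and vertical lines mark the cardiac transcription factor genes (dashed: second start of Mef2c). Tbx5 at 0.12, the first start of Mef2c at 0.30 and Hand1 at 0.34 lie in the left-hand hump, and Isl1 at 0.77 and the second start of Mef2c at 0.80 in the right-hand one.

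H3K4me3 was called at most of the genes at every stage. In mESC, 6 of the 8 had a domain in WT and 5 in KO, against 63.2% and 57.0% of all coding genes. At week 1 the number was 7 in WT and 7 in KO (62.1% and 57.0% of all coding genes), at week 2 again 7 and 7 (65.7% and 64.5%), and at week 3 it was 7 in WT and 6 in KO (66.2% and 65.8%). With so few genes, a count of 5 is close to the share over all genes. Tbx20, Hand1, Hand2, Isl1 and Myocd had H3K4me3 in all 8 libraries. Of the 52 domains counted here 50 covered the start itself; the exceptions were Hand1 in WT at week 3, where the domain began 0.32 kb downstream, and Tbx5 in KO at week 3, where it began 0.93 kb downstream.

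H3K27me3 was called at all 8 genes in WT mESC, where 34.9% of all coding genes had it. In KO mESC it was called at Nkx2-5, Tbx5 and Hand1, that is 3 of 8, against 7.57% of all coding genes in that short list. At week 1 it was called at 6 genes in WT and 5 in KO (20.5% and 21.1% of all coding genes), at week 2 at 7 in WT and 8 in KO (29.8% and 24.1%), and at week 3 at 8 in each (33.2% and 19.5%). Of the genes with the mark in WT, the KO also had it at 3 of 8 in mESC, 5 of 6 at week 1, 7 of 7 at week 2 and 8 of 8 at week 3. Over all coding genes with the mark in WT, the same shares were 15.5%, 72.3%, 48.8% and 49.9%. The last 2 shares are over 6671 and 7429 genes. At other cardiac regulators, given below, the KO likewise had it in EB at most of those with the mark in WT. Limited to the upper 50% of scores, the week 2 lists no longer held Nkx2-5 and Hand1 in WT and Tbx20 and Mef2c in KO, and the week 3 lists no longer held Hand1 in WT and Tbx20 in KO.

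Read together, both marks made 6 of the 8 genes bivalent in WT mESC, and Hand1, 1 of 8, in those of the KO (18.3% and 4.29% of all coding genes). The number was 6 in WT and 5 in KO at week 1 (15.2% and 10.7%), 6 and 7 at week 2 (13.7% and 13.4%), and 7 and 6 at week 3 (19.6% and 11.3%). Of the 6 genes bivalent in WT mESC, Hand1 was also bivalent in the KO, against 14.6% of the 4100 coding genes bivalent in WT. Tbx20, Hand2, Isl1 and Myocd, 4 of the 6, were active in the KO, against 60.5% of those 4100 genes, and Nkx2-5 was repressive. At week 1, 5 of the 6 genes bivalent in WT were bivalent in KO (50.9% of all genes bivalent in WT), at week 2 all 6 were (54.5%) and at week 3 it was 6 of 7 (46.7%).

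Setting gene and stage side by side, the class was the same in WT and KO in 23 of 32 pairs. In mESC it was the same at 2 of 8 genes, Tbx5 and Hand1, against 63.6% of all coding genes. Of 30 other cardiac regulators, given below, it was the same at 11. All 8 cardiac transcription factor genes had H3K27me3 in WT mESC, against 34.9% of all coding genes. The 63.6% is thus mostly over genes without that mark in WT, which cannot lose it in the short KO list. At each of weeks 1, 2 and 3 the class was the same at 7 of 8, against 81.9%, 71.0% and 77.0% of all coding genes. Without the mESC stage it was the same in 21 of 24 pairs. The gene that differed was Isl1 at week 1, Myocd at week 2 and Nkx2-5 at week 3.

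**Figure D2:**
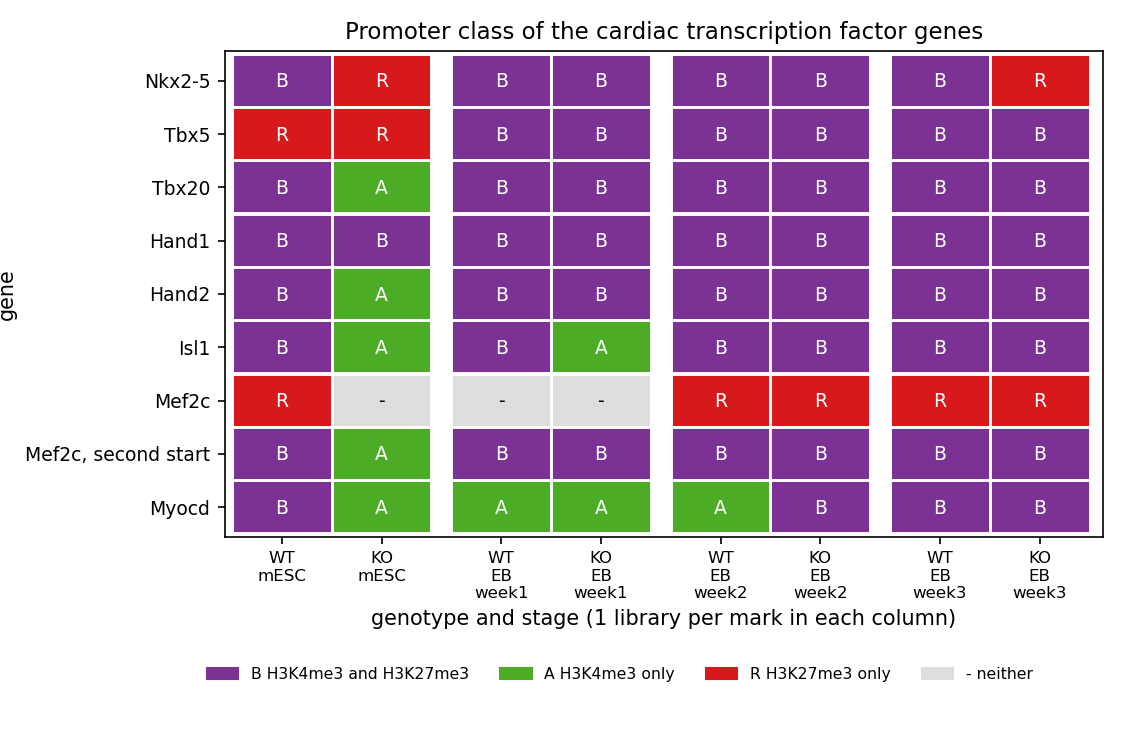
Each cell gives the promoter class of 1 gene (rows) in 1 genotype and stage (columns), from 1 library per mark: B for both marks, A for H3K4me3 only, R for H3K27me3 only and a dash for neither. The KO mESC column differs from the WT mESC column at 6 of the 8 genes, and each later pair of columns at 1 of 8; Mef2c is drawn at both of its starts.

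Nkx2-5 encodes the homeodomain factor that marks early cardiac progenitors, and lies at chr17:26975609-26978510 on the minus strand. Its H3K4me3 domain was 16.9 kb long in WT mESC, 18.4 kb at week 1, 18 kb at week 2 and 19.6 kb at week 3. In the KO no H3K4me3 domain lay nearer than 58.1 kb to the start in mESC. The KO domain was 19.3 kb long at week 1 and 2.45 kb at week 2, and at week 3 the nearest one ended 4.91 kb from the start, outside the 2 kb limit but inside a limit of 5 kb, under which the gene would be bivalent there. The WT libraries had a long domain at each stage, and the KO had one of like length at week 1. The short KO domain of week 2 was below the median score of its list. Of the 6 genes with H3K4me3 in WT mESC, Nkx2-5 was the 1 without it in KO (12.0% of all coding genes with the mark in WT), and at week 3 it was 1 of 7 (3.73%).

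H3K27me3 covered the start of Nkx2-5 in all 8 libraries. The domain was 70.2, 49.0, 46.8 and 61.2 kb long in WT over the 4 stages. In KO it was 112.5, 34.2, 72.0 and 102.6 kb long at the same stages. By its mean read count per bin it stood high in its list in every library, between the 75.5 and the 99.2 percentile. It was also the only one of the 8 genes with H3K9me3 at the start in KO mESC and not in WT. That H3K9me3 domain was 115.2 kb long and reached the neighbouring gene Kifc5b, and its mean count was in the 49.7 percentile of its list and its score below the list's median. In WT the nearest H3K9me3 domain ended 12.7 kb away. Of the 3 genes without H3K9me3 in WT, 1 had it in KO, against 25.4% of all such coding genes. The H3K9me3 lists of WT and KO were unlike in the number and length of their domains, as given below.

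**Figure D3:**
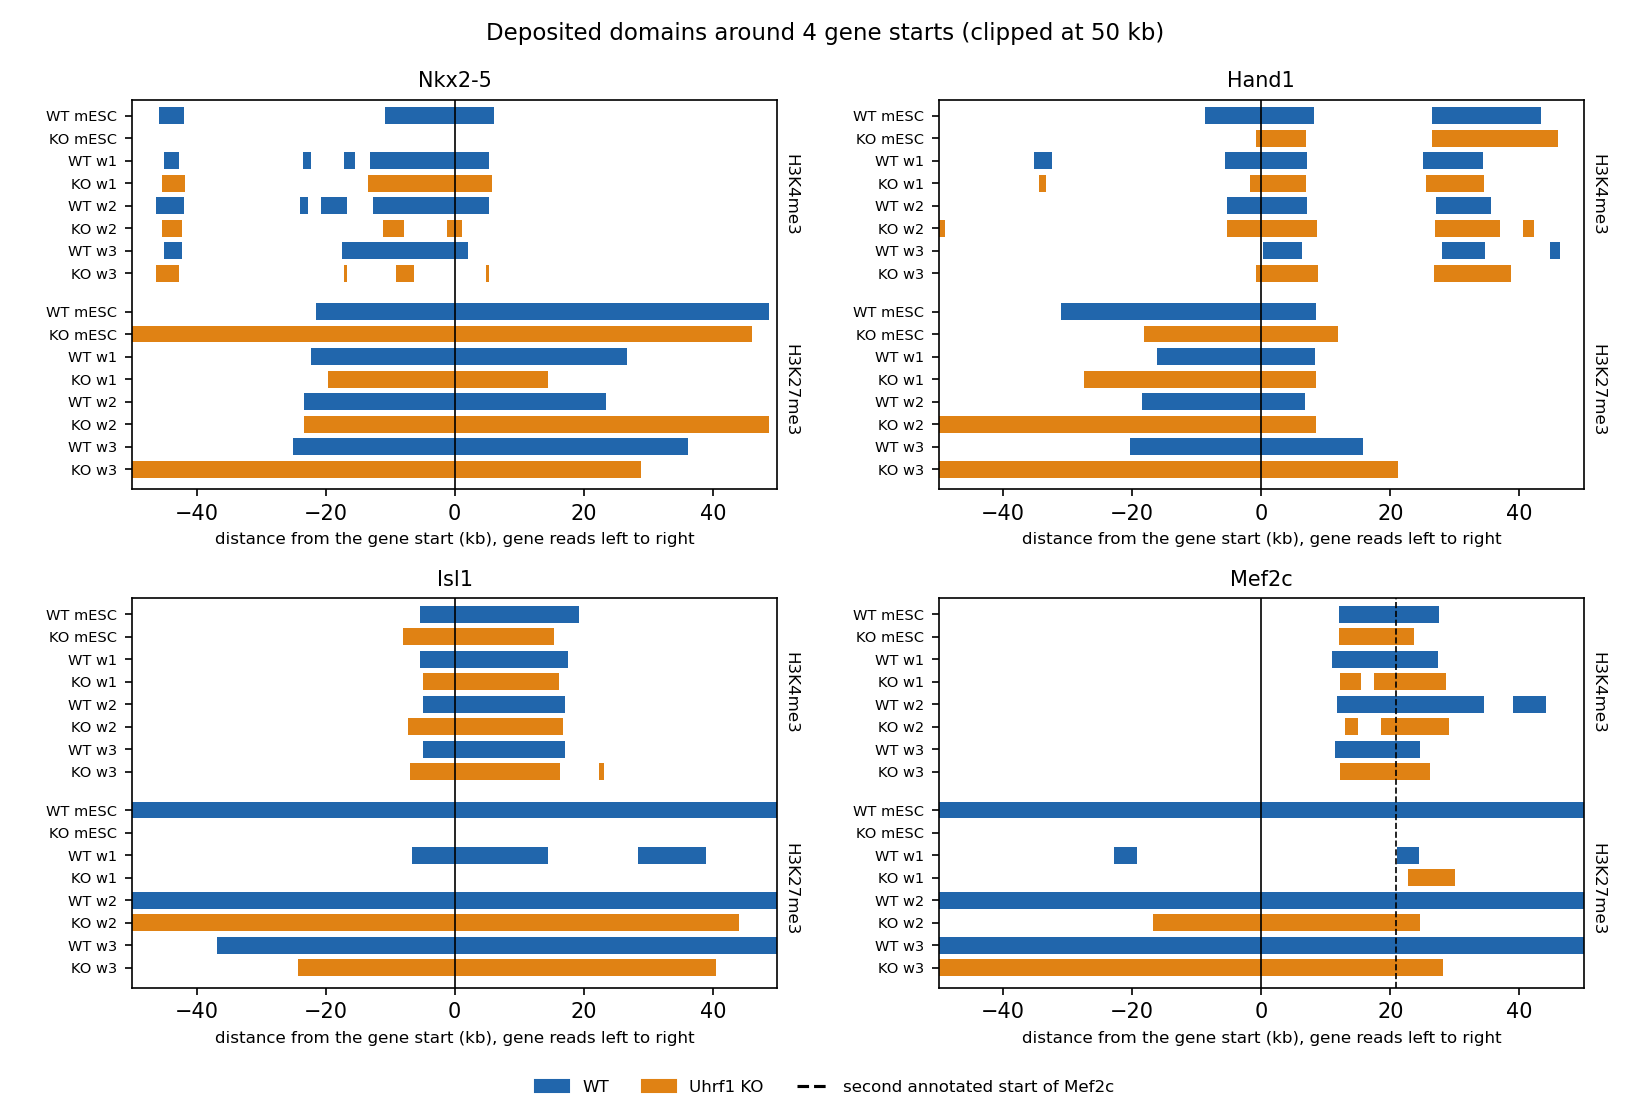
Horizontal bars are the deposited domains within 50 kb of 4 gene starts, by distance from the start in kb with the gene reading left to right; the upper 8 rows of each panel are H3K4me3 and the lower 8 H3K27me3, WT in blue and Uhrf1 KO in orange. At Nkx2-5 the WT rows hold H3K4me3 domains of 16.9 to 19.6 kb over the start while the KO mESC row is empty, and at Isl1 the H3K27me3 rows of KO mESC and KO week 1 are empty.

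Tbx5 encodes the T-box factor of the first heart field and the forelimb, and lies at chr5:120284672-120335227 on the plus strand, beside its paralog Tbx3. No H3K4me3 domain lay within 120.5 kb of its start in mESC of either genotype. By week 1 a domain was present in both, 15.2 kb long in WT and 11.6 kb in KO. It was 14.8 and 15.4 kb long at week 2, and 10 and 4.8 kb at week 3, WT first. Of the 2 genes without H3K4me3 in WT mESC, Tbx5 had it at week 1 in WT (10.1% of all such coding genes), and of the 3 without it in KO mESC, Tbx5 and Nkx2-5 had it at week 1 in KO (13.4% of all such genes).

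H3K27me3 lay over Tbx5 in all 8 libraries, in long domains. They ran to 493.2, 145.3, 338.4 and 500.4 kb in WT over the 4 stages. In KO they ran to 1348.5, 192.6, 466.2 and 493.2 kb. Those of mESC and of weeks 2 and 3 also held Tbx3. The KO mESC domain had a mean of 0.57 reads per bin, in the 35.9 percentile of its list. Tbx5 had the lowest CpG ratio of the set and was repressive in mESC, and from week 1 on it was bivalent in both genotypes at all 3 weeks.

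Tbx20, a T-box factor of the developing chambers, lies at chr9:24527648-24578746 on the minus strand. Its H3K4me3 domain was present in every library, at lengths of 15.6, 20.8, 19.2 and 14.4 kb in WT and 14.3, 14.4, 13.7 and 14.4 kb in KO over the 4 stages. The WT and KO domains of week 3 had the same ends. H3K27me3 was called in 7 of the 8 libraries. It was 162.0 kb long in WT mESC, and in KO mESC the nearest domain was 2773 kb away. In EB it was 10.5, 176.4 and 70.2 kb long in WT and 14.4, 30.6 and 37.8 kb in KO at weeks 1, 2 and 3, so that the KO domain was the longer at week 1 and the shorter at weeks 2 and 3. With domains limited to the upper 50% of scores, it was not called in KO at weeks 2 and 3.

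Hand1 and Hand2 encode paired basic helix-loop-helix factors of the left and right ventricle. Hand1, at chr11:57642207-57646320 on the minus strand, was the only one of the 8 genes bivalent in all 8 combinations of genotype and stage. Its H3K27me3 domain was 39.6, 24.5, 25.2 and 36 kb long in WT over the 4 stages. In KO it was 30, 36, 59.4 and 73.8 kb long. In EB the KO domain was longer than the WT one at all 3 weeks, and in mESC it was shorter. Its mean count per bin was between the 85.2 and the 98.7 percentile of the list in all 8. Its score, which grows with length, was below the median of the list in mESC of both genotypes and in WT at weeks 2 and 3. H3K4me3 at Hand1 was 16.9, 12.8, 12.4 and 6 kb long in WT and 7.8, 8.75, 14 and 9.6 kb in KO.

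Hand2, at chr8:59799780-59803314 on the plus strand, had the longest H3K4me3 domain of the set in all 8 libraries. It was 52.0, 32.8, 54.4 and 44.0 kb long in WT and 45.5, 25.6, 33.6 and 36.0 kb in KO over the 4 stages. The KO domain over the start was thus the shorter at every stage. At week 3, however, a second KO domain ran from 26.6 to 36.2 kb downstream of the start. H3K4me3 then covered 45.6% of the surrounding 100 kb in KO against 44.4% in WT, and less in KO than in WT at the other stages. In each library the domain over the start was longer than at least 94.3% of all H3K4me3 domains, and it held no other coding gene. In KO mESC the mean count per bin of this domain was among the lowest of its list, at the 0.49 percentile, against the 24.2 percentile in WT. H3K27me3 was 898.2 kb long in WT mESC, and in KO mESC the nearest domain was 1831 kb away. At week 1 it was 57.8 kb in WT and 52.2 kb in KO. At weeks 2 and 3 it was 2048.4 and 2046.6 kb in WT, holding 12 coding genes, against 374.4 and 606.6 kb in KO.

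Isl1 encodes the LIM-homeodomain factor of the second heart field and also of motor neurons, and lies at chr13:117088478-117099896 on the minus strand. Its H3K4me3 domain had the narrowest range of lengths among the genes with the mark in all 8 libraries, at 24.7, 22.8, 22.0 and 22.0 kb in WT and 23.4, 21.0, 24.2 and 23.2 kb in KO over the 4 stages. H3K27me3 set the genotypes apart at 2 stages. It was 565.2 kb long in WT mESC and 21.0 kb at week 1, whereas in the KO the nearest domain was 3122 kb away in mESC and 116.1 kb away at week 1. At week 2 both genotypes had it, 1539 kb long in WT and 106.2 kb in KO, and at week 3 it was 97.2 kb in WT and 64.8 kb in KO. The KO week 1 list held 6600 domains over 180.1 Mb against 6673 over 101.3 Mb in WT. Of all coding genes with the mark in WT at week 1, 72.3% also had it in KO. Why no domain was called at Isl1 in KO at week 1 was not tested.

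Mef2c encodes a MADS-box factor that acts with the others on muscle genes, and lies at chr13:83643033-83806684 on the plus strand. At its first start no library had H3K4me3 within 2 kb, and the nearest domain was 10.97 to 12.92 kb away in all 8. In 6 of the 8 that domain also covered the second start, and in KO at weeks 1 and 2 it was a separate one that ended 15.4 and 15.0 kb from the first start. The second start itself had H3K4me3 in all 8 libraries. There the domain was 15.6, 16.4, 22.8 and 13.2 kb long in WT and 11.7, 11.2, 10.5 and 14 kb in KO over the 4 stages. H3K27me3 was called at the second start in 7 of the 8, KO mESC being without it. Read at its second start, Mef2c was active in KO mESC and bivalent in the other 7 combinations, in place of repressive in 5 and unmarked in 3 at its first start. At week 1 the H3K27me3 domain at the second start was 3.5 kb long in WT and 7.2 kb in KO. At week 2 the domain over both starts was 1512 kb in WT and 41.4 kb in KO.

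Myocd encodes myocardin, the coactivator of serum response factor in cardiac and smooth muscle, and lies at chr11:64990063-65083491 on the minus strand. Its H3K4me3 domain was the shortest of the set in mESC, 7.8 kb in WT and 5.2 kb in KO. It was 10.4, 6 and 3.6 kb long in WT and 10.9, 7.7 and 5.2 kb in KO at weeks 1, 2 and 3, so that in EB the KO domain was the longer at all 3 weeks. H3K27me3 was 167.4 kb long in WT mESC and not called in KO mESC, where the nearest domain was 1318 kb away. At week 1 neither genotype had it at the start. At week 2 the KO had a domain of 122.4 kb and the nearest WT domain was 193.5 kb away. At week 3 both had it, 275.4 kb in WT and 196.2 kb in KO. These domains had low mean counts, from the 8.60 to the 26.7 percentile of their lists.

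Over the 100 kb centred on the start, H3K27me3 covered a median of 100% at the 8 genes in WT mESC and 0% in KO mESC, against medians of 10.8% and 0% over all coding genes. In KO it was lower than in WT at 6 genes, equal at Tbx5 and higher at Nkx2-5, where it was 96.0% against 70.2%. In EB the direction was mixed. At week 1 the KO was higher at 5 genes and lower at 3, at week 2 higher at 3 and lower at 3, and at week 3 higher at 2 and lower at 3. Hand1 was higher in KO at all 3 weeks, at 36.0%, 58.5% and 71.1% against 24.5%, 25.2% and 36.0%. Nkx2-5 was higher in KO at weeks 2 and 3 and lower at week 1. Tbx20 was at 30.6% and 37.8% in KO at weeks 2 and 3 against 78.5% and 71.2% in WT.

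H3K4me3 covered less of the 100 kb in KO mESC than in WT at 7 of the 8 genes, Tbx5 being at 0% in both. The median difference was -5.20 percentage points, and over all coding genes it was 0. The KO mESC list was smaller as a whole, with 11509 domains over 188.4 Mb against 15272 over 216.1 Mb in WT. Mean coverage of the 100 kb over all coding genes was 22.4% in KO and 25.5% in WT, and the medians were 14.3% and 16.9%. At week 1 the KO was lower at 7 genes and higher at Myocd, with a median difference of -2.27 points beside -2.15 over all coding genes. At week 2 the KO was lower at 4 and higher at 4, and at week 3 it was lower at 2, equal at Tbx20 and higher at 5. The bins from which domains were built were 1300 bp long in the mESC H3K4me3 lists and 350 or 400 bp in the EB lists, so domains of mESC and of EB differ in resolution. Those of H3K27me3 were 1500 bp in KO mESC and 1750 or 1800 bp in the other lists.

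**Figure D4:**
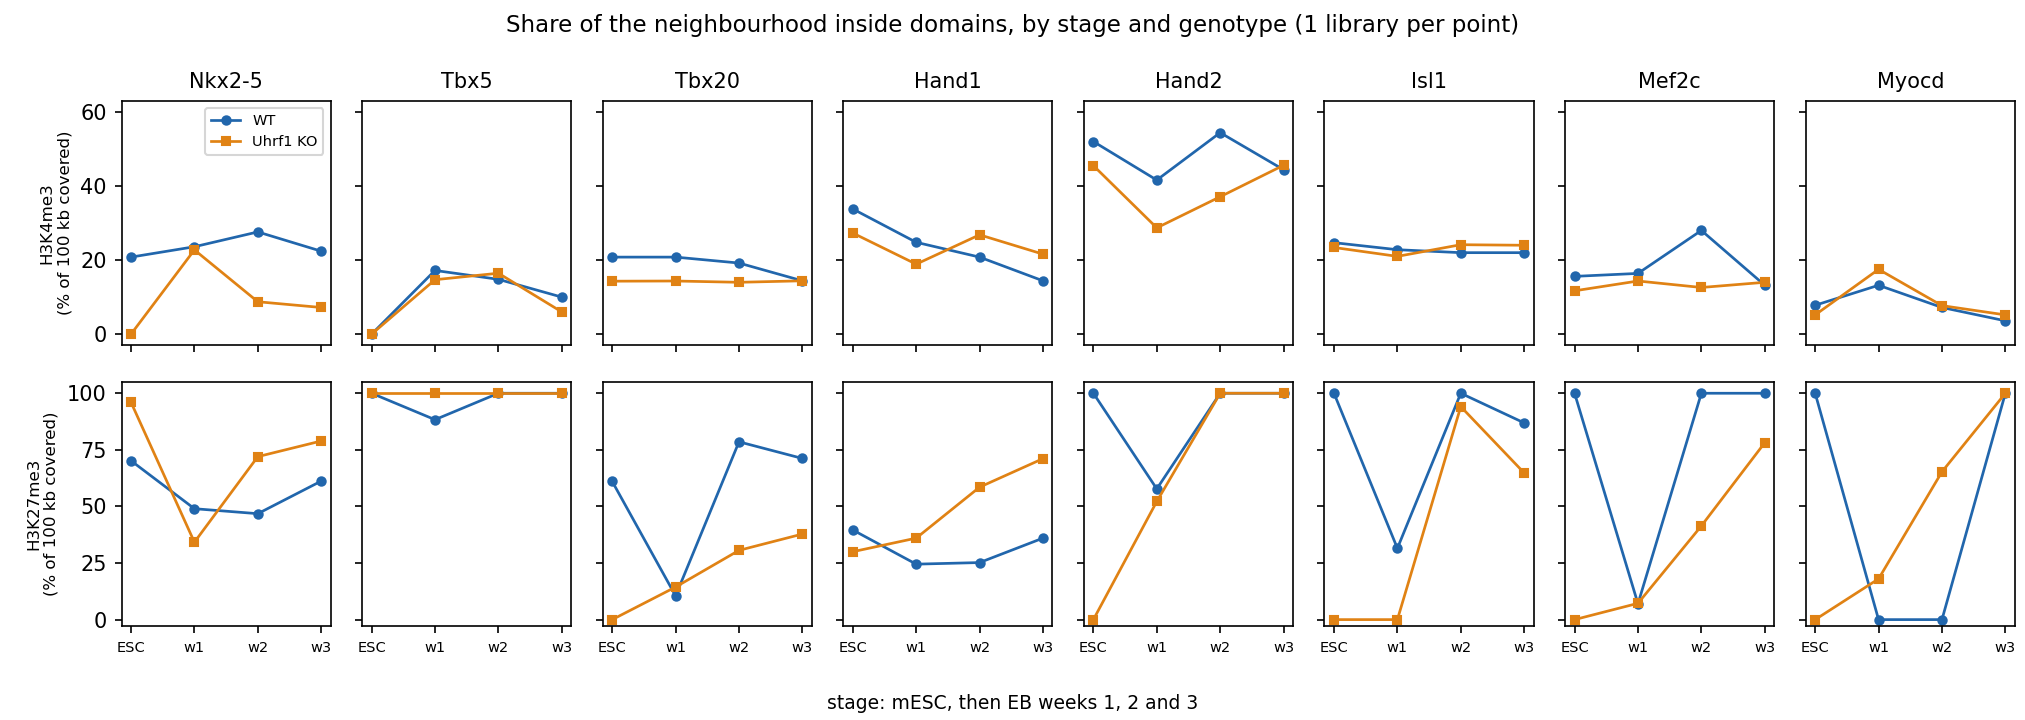
Points give the percent of the 100 kb around each gene start that lay inside H3K4me3 domains (upper row) or H3K27me3 domains (lower row) at the 4 stages, WT in blue circles and Uhrf1 KO in orange squares, 1 library per point. The KO begins at 0% of H3K27me3 in mESC at Tbx20, Hand2, Isl1, Mef2c and Myocd and reaches 37.8% to 100% at week 3.

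The 5 genes without H3K27me3 in KO mESC, namely Tbx20, Hand2, Isl1, Mef2c and Myocd, all had it in KO EB at week 2. Over all coding genes without it in KO mESC, 20.6% had it in KO at week 2. That share is not limited to genes with the mark in WT mESC, as these 5 were. Among the other cardiac regulators, given below, 17 of the 23 without it in KO mESC had it in KO at week 2. Hand2 and Tbx20 had H3K27me3 in KO by week 1, and the other 3 by week 2. As the KO mESC list was short, a domain that was there but not called cannot be told apart from one that was not there.

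H3K9me3 was called at 5 of the 8 genes in WT mESC, Tbx5, Hand1, Hand2, Mef2c and Myocd, and at 4 in KO, Nkx2-5, Hand1, Mef2c and Myocd (29.7% and 40.1% of all coding genes). The KO list held 3118 domains with a median length of 140.4 kb, over 1086 Mb. The WT list held 11285 with a median of 37.8 kb, over 987.6 Mb, so presence at a gene rests on lists of unlike build. The domains at the genes differed much in size. In WT they were 41.4 kb at Hand1, 45.0 kb at Tbx5, 369.0 kb at Mef2c, 1406 kb at Myocd and 2149 kb at Hand2. At Hand1 the WT H3K9me3 domain began at the same base as the WT H3K27me3 domain and was 41.4 kb long where that one was 39.6 kb. In KO they were 9916 kb at Hand1, holding 184 coding genes, 10498 kb at Myocd, holding 200, and 7594 kb at Mef2c, holding 16. Most of each of these KO domains lay outside the gene that counted it. Neither genotype had H3K9me3 within 5 kb of Tbx20 or Isl1, and at Tbx5 the KO had none nearer than 983.1 kb.

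Oct4, Sox2 and Nanog, the core factors of the pluripotent state, were read near the genes in mESC. A summit of Oct4 lay within 20 kb of 2 of the 8 genes in WT, Tbx20 and Hand2, and of none in KO, against 30.1% and 1.10% of all coding genes. For Sox2 the number was 1 in WT, Hand2, and 4 in KO, Tbx5, Hand1, Hand2 and Myocd (18.8% and 57.7% of all coding genes). For Nanog it was 0 in WT and 1 in KO, Tbx5 (7.51% and 27.4%). With 8 genes these counts are close to the shares over all coding genes and are not a result about these genes. Nkx2-5, Isl1 and Mef2c had no summit of any factor in either genotype, also within 50 kb. The Sox2 and Nanog lists were larger in KO, with 20755 and 10632 summits against 5190 and 2390 in WT, and the Oct4 list smaller, so counts in the 2 genotypes rest on lists of unlike size.

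The windows of 100 bases around 4 of these summits are printed on the plus strand of mm9, as the site next to the Tbx20 start, the WT Oct4 site at Hand2, whose window also holds the WT and KO Sox2 summits there, and the KO Sox2 sites at Tbx5 and Hand1. Capitals mark the Sox word CATTGT or its reverse complement ACAATG, or the POU word ATGCAAA or its reverse complement TTTGCAT. Both strands were searched, and ACAATG and ATGCAAA can overlap in their shared letters ATG.
Tbx20, WT Oct4, chr9:24581145-24581244: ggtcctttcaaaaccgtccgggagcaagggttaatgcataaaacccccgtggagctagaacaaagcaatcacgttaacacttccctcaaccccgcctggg
Hand2, WT Oct4, chr8:59819776-59819875: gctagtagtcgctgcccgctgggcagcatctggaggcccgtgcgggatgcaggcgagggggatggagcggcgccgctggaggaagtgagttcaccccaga
Tbx5, KO Sox2, chr5:120343228-120343327: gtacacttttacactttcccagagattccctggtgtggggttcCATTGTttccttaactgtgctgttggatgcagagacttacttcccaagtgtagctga
Hand1, KO Sox2, chr11:57638492-57638591: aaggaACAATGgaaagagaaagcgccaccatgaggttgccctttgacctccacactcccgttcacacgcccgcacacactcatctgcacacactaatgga
Of the 10 summits within 20 kb of the genes, 2 had the Sox word in the window, the KO Sox2 summits at Tbx5 and Hand1, and 0 had the POU word. Over all summits on assembled chromosomes, the Sox word stood in 13.0% of windows of WT Sox2 and 12.8% of KO Sox2, and the POU word in 13.0% of WT Oct4. A word is a description of the window and not a site.

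The WT Oct4 summit at Tbx20 lay 2.45 kb upstream of the start and 50 reads high, in the 71.2 percentile of its list, inside both the WT H3K4me3 and the WT H3K27me3 domain. The nearest KO Oct4 summit lay 2439613 bp away. Another cluster lay 44.3 to 44.6 kb upstream of Tbx20, where WT had all 3 factors with heights of 56 reads for Oct4, 23 for Sox2 and 14 for Nanog. There the KO had Sox2 at 33 reads, 60 bp from the WT summit, and Nanog at 10 reads, 241 bp from the WT one. At Hand2, WT Oct4 at 31 reads and WT Sox2 at 18 reads lay 20.05 and 20.03 kb downstream of the start, and KO Sox2 at 13 reads lay 40 bp from the WT Sox2 summit, within the 100 bp that counted as the same site. WT Sox2 also had a low summit of 12 reads in an exon of Hand2, 0.93 kb from the start.

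At Tbx5 the KO Sox2 summit of 17 reads and the KO Nanog summit of 11 reads lay 58.6 and 58.5 kb downstream of the start, 8.05 and 7.99 kb past the end of the gene. At Hand1 the KO Sox2 summit of 22 reads lay 7.78 kb downstream of the start. The KO Sox2 summits near Myocd, of 11 and 14 reads, lay past its end at the neighbour Arhgap44, the second 0.042 kb from the Arhgap44 start, so they were nearer to another gene. Against a median height of 18 reads in the KO Sox2 list, the summit at Hand1 was above the median and the others within 20 kb were below it.

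**Figure D5:**
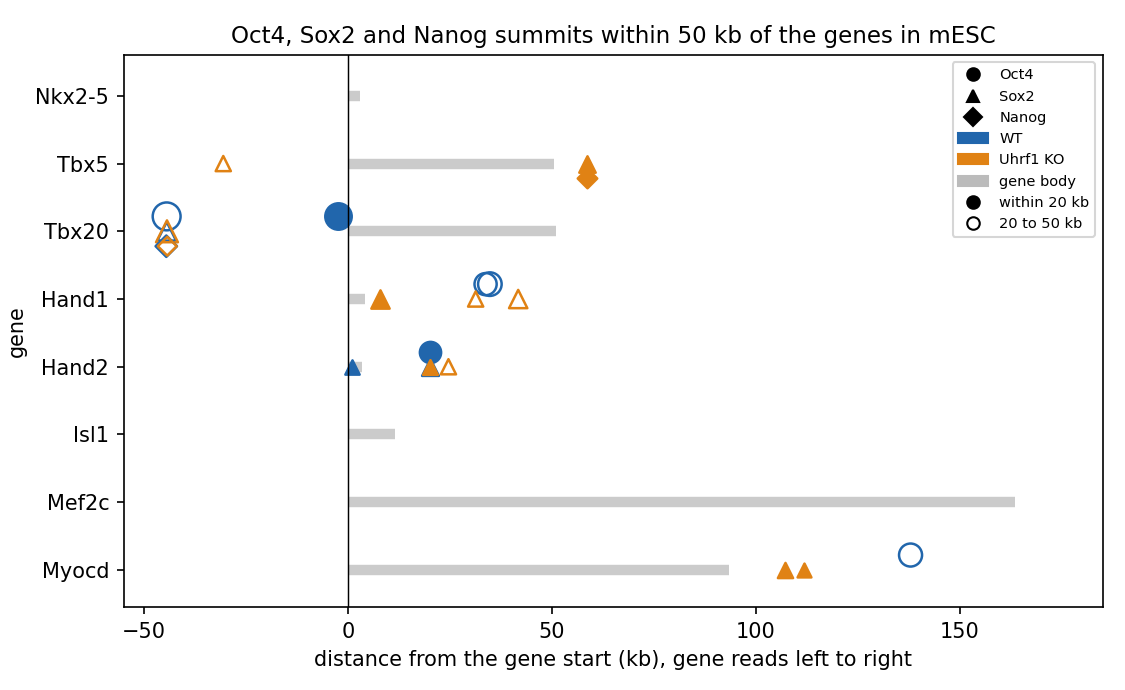
Symbols are Oct4 (circles), Sox2 (triangles) and Nanog (diamonds) summits within 50 kb of each gene body in mESC, by distance from the gene start in kb; larger symbols are higher summits, filled ones lie within 20 kb, blue is WT and orange Uhrf1 KO, and grey bars are gene bodies. The rows of Nkx2-5, Isl1 and Mef2c are empty, and the KO has no Oct4 symbol.

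Uhrf1 in WT mESC lay on none of the 8 gene bodies, where 9.84% of all coding genes carried a window. The nearest 10 kb window was 25.6 kb from Nkx2-5, 66.7 kb from Hand2, 187.6 kb from Tbx20, 198.5 kb from Isl1, 243.0 kb from Mef2c, 472.2 kb from Hand1, 500.1 kb from Myocd and 514.8 kb from Tbx5. The median of these distances was 220.8 kb, beside 172.1 kb over all coding genes. Of 8 genes a share of 9.84% would be less than 1, so the count of 0 is not a result about these genes. The window nearest to Nkx2-5, chr17:26940001-26950000, lay inside the WT H3K27me3 domain of that gene. The same held for the nearest windows of Hand2, Isl1 and Mef2c. At every gene but Tbx5 the nearest window also met a WT H3K9me3 domain.

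The genes resembled each other to different degrees. By the percent of the 10 kb around the start covered in each of the 18 histone lists, Tbx20 and Hand2 were the nearest pair, with a mean absolute difference of 6.92 percentage points and the same state in 17 of 18 lists, followed by Tbx20 and Isl1 at 7.11 points. Mef2c at its first start was the farthest from the rest, up to 65.2 points from Tbx20. Among all other coding genes with a start over 100 kb away, the nearest to Hand2 was Irx5, an Iroquois homeodomain factor of the heart, at 4.41 points. The nearest to Hand1 was B4galnt2 at 7.60 points, to Myocd Slit3 at 9.06, to Tbx5 Gata4 at 11.9 and to Nkx2-5 Hoxd8 at 15.5. The nearest to Mef2c was 1700001J11Rik at 0.13. Tbx5 and Gata4, a zinc finger factor of the heart and endoderm, had the same state in all 18 lists. The same held for Hand1 with B4galnt2, Hand2 with Irx5, and Mef2c with 1700001J11Rik. Points of 1 list share its library and its bin length, and no function is implied.

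Other regulators of the cardiac network were chosen by name for comparison. Of 30 further regulators, 21 were bivalent in mESC of the WT, and 3 in those of the KO. At weeks 1, 2 and 3, 19, 19 and 21 were bivalent in WT and 15, 21 and 20 in KO. Of the 21 that were bivalent in WT mESC, 14 were active in KO, beside 4 of the 6 cardiac transcription factor genes above. H3K27me3 was called at 25 of the 30 in WT mESC and at 7 in KO. Of those with the mark in WT, the KO also had it at 7 of 25 in mESC, and at 18 of 19, 19 of 19 and 20 of 24 at weeks 1, 2 and 3. Of those bivalent in WT, 15 of 19, 19 of 19 and 19 of 21 were bivalent in KO at weeks 1, 2 and 3. The class differed between the genotypes at no stage for 7 genes, at 1 stage for 14, at 2 for 7 and at 3 for 2. The 2 were Hopx, which encodes a homeodomain-only protein, and Mesp1, the factor of the earliest cardiac mesoderm. Hopx was bivalent in WT mESC and active in KO, unmarked in both at week 1, and unmarked in WT but bivalent and then active in KO at weeks 2 and 3. Mesp1 was bivalent, active, unmarked and repressive in WT over the 4 stages, and repressive, unmarked, unmarked and active in KO. Next in alphabetical order came Hey2, a Notch target of the ventricle, and Mef2b, a relative of Mef2c, each differing at 2 stages.

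The genes of the heart muscle that these factors act on were read in the same way. Of 13 such effector genes, Myl7, Ryr2 and Gja5 were bivalent in mESC of the WT (3 genes), and 0 in those of the KO. Among all coding genes 18.3% and 4.29% were bivalent, so with 13 genes these counts are close to the general shares. Over the 4 stages H3K4me3 was called at 5, 9, 8 and 5 of the 13 in WT and at 4, 11, 8 and 6 in KO. Over all coding genes the shares were 63.2%, 62.1%, 65.7% and 66.2% in WT and 57.0%, 57.0%, 64.5% and 65.8% in KO. At week 1 the genes with H3K4me3 included Actc1, Myh6, Tnnt2 and Tnnc1, of the sarcomere, in both genotypes, and Myh7 and Myl2 in KO only. Myl2 also had H3K27me3 in KO at week 1. At week 2 Myh7 and Tnnt2 had H3K4me3 in WT only, and Nppb and Myl7 in KO only. H3K27me3 was called at 4, 2, 2 and 4 of the 13 in WT over the 4 stages and at 1, 4, 6 and 3 in KO. Over all coding genes the shares were 34.9%, 20.5%, 29.8% and 33.2% in WT and 7.57%, 21.1%, 24.1% and 19.5% in KO. The cardiac transcription factor genes had H3K27me3 in 6 to 8 of 8 in WT at the same stages.

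Markers of other cell types were read by the same classes, which do not show whether those cells were present. None of the 3 neural markers that could be read was active at any stage in either genotype; they were bivalent in WT throughout, and in KO 1, 1, 3 and 3 of them were. Gata6 of 4 endoderm markers was active at week 1 in both genotypes, and Hnf4a was active at weeks 2 and 3 in WT and at week 3 in KO. Cdh5 of 4 endothelial and blood markers was active at week 1 in both. Sox17, Gata6 and Kdr were also active in undifferentiated KO mESC, where the H3K27me3 list was short. No endoderm, endothelial or blood marker was active in WT mESC. How much cells of other types contributed to the domains of the cardiac genes was not tested. Fewer cells with a mark cannot be told apart from a weaker mark in each cell.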

How the data were processed

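ChIP-seq was done in E14 mESC and EB, and 25 of the 33 samples have a deposited list; the 8 inputs were not used here. The authors mapped reads to mm9 with Bowtie2 2.1.0, per the labels, keeping 1 alignment per read. They called histone domains with RSEG against input, factor summits with MACS, and Uhrf1 as enriched 10 kb windows, 1 list per library and without pooling. Every deposited domain carries its average number of reads in a bin, which is a signal, and an RSEG score, which is larger for longer domains. For each summit the deposited signal is its height in reads. The Uhrf1 windows carry no value. Bins differed between lists, so mean counts and scores were ranked within a list only.

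Groups follow GEO's titles. Genes were the 22367 protein-coding genes of the GENCODE annotation for NCBIM37 outside the mitochondrial genome; Sox1 was not found there, so 3 of 4 neural markers were read. Overlaps of at least 1 bp were computed in Python 3.11 and plots in matplotlib 3.10.9. The functions were tested on simulated domains at 200 gene starts and gave 0 wrong answers. All Uhrf1 windows lay within the chromosomes of the reference, and 9 ended at a chromosome end. Promoter sequences were read from NCBIM37.

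With 1 library per group no test was run. The members, lists and rules were chosen with earlier results of these data known. Named were the 8 genes, the 4 other regulators whose class differed at the most stages in alphabetical order, the gene most like each of the 8 (not reported here for Tbx20 and Isl1), all summits near them, and Uhrf1; other examples were chosen after their values were seen. The alternatives were narrower and wider windows, a window at least 50% covered, domains or summits above the median of their list, any annotated start, other summit distances and other Uhrf1 distances.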

Additional observations from a re-analysis of the deposited data

Results flagged for a closer look

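Myocd differed between the genotypes in opposite directions at 2 stages, and the difference between stages was not tested. The share of the 10 kb around its start covered by H3K27me3 differed, KO minus WT, by -100 percentage points in mESC and by 100 points at EB week 2, with 1 library per genotype and stage.

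Over the 8 genes, the median KO minus WT difference in the share of the surrounding 100 kb covered by H3K27me3 was -80.5 percentage points in mESC and 2.05 points at week 1. For H3K4me3 it was -5.20, -2.27 and -2.35 points in mESC and at weeks 1 and 2, and 1.00 point at week 3. These opposite signs between stages were not tested either, and the KO mESC H3K27me3 value rests on the short list of 722 domains.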

How the results depend on the processing

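Counts of the 8 genes were recomputed under 150 other settings. In 138 the count stayed within 1.5 times that reported, among them all those with narrower or wider windows, with the window at least 50% covered or with any annotated start for the histone marks, and both for Uhrf1. With the lists limited to domains above their median score, KO mESC H3K4me3 was called at 3 genes and KO mESC bivalency at 0, Hand1 being the gene left out of the latter. Within 10 kb of the gene body the number of genes with a summit was 1 for WT Oct4 and 2 for KO Sox2, and within 50 kb it was 4 for WT Oct4, 2 for WT Sox2, 1 for WT Nanog and 2 for KO Nanog. With summits above the median height it was 1 for WT Oct4, 0 for WT Sox2, 1 for KO Sox2 and 0 for KO Nanog. The fewer domains or summits in these settings, or the wider reach, account for the counts by construction. Single genes changed more often: any annotated start gave Mef2c H3K4me3 in all 8 libraries, and a 5 kb limit gave Nkx2-5 H3K4me3 in KO at week 3. Leaving out the mESC stage, chosen after seeing the data, left 21 of 24 gene and stage pairs of the same class.

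No paired analysis was possible because the labels number no replicates and each genotype, stage and target had 1 library. A comparison of WT and KO blocked by stage, which would take the stages as replicates of a genotype, was not run. The lists carry no read depth, so an uncalled domain sets no upper limit on the mark, and 1 KO line stands for the genotype.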
